A study of Mus musculus with 7 samples.

Results

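The haematopoietic growth factor receptors described here are 9 genes, Flt3, Kit, Csf1r, Csf2ra, Csf2rb, Csf3r, Epor, Il7r and Il3ra, out of 20018 genes that could be named on the array. The genes were chosen with earlier results of these data known. Their probes were taken by name and not by any measured value: every probe whose RefSeq accession belongs to one of them was taken, which gave 13 probes on 14 spots. Flt3 and Csf2rb had 2 probes each, Csf1r had 3 and the other 6 genes had 1. All 13 probes were well above background on all 7 arrays, none was saturated, and all 13 passed the filter on dim probes, so none was left out of the test.

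The series holds 7 one-colour Agilent arrays, 3 labelled Gata2 knockout and 4 labelled control, each of RNA from dendritic cells that had been cultured from sorted common myeloid progenitors of the mouse. The donors of the first group were C57BL/6 mice of genotype Gata2(f/f)/ER-Cre, in which both copies of Gata2 are floxed and a Cre recombinase is switched on by tamoxifen. The control donors were C57BL/6 mice of genotype Gata2(f/f), with the same floxed alleles and no Cre. Both groups received tamoxifen between day 1 and day 10, and the progenitors were sorted on days 20 to 22. They were then grown on bone marrow feeder cells of the SJL strain with FLT3 ligand at 200 ng/ml in both groups. The sources used here give neither the promoter that drives the Cre, nor the age of the mice, nor the step that separated the dendritic cells from the feeder cells. Nothing in the labels ties the replicates to different mice or cultures. The p-values therefore cover the spread among the arrays alone, which may be technical.

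Growth factor receptors let a blood progenitor survive and divide in response to a cytokine, and which receptors a cell carries is one of the marks of its lineage. FLT3, KIT and the CSF1 receptor are receptor tyrosine kinases of a single structural class, with an extracellular part built of immunoglobulin-like domains and a kinase inside the cell. The others belong to the cytokine receptor superfamily, have no kinase of their own and signal through JAK kinases and STAT factors. In dendritic cell biology FLT3 has a central place, since FLT3 ligand drives the formation of these cells from progenitors and was the cytokine added to these cultures.

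The stretch of DNA just before a gene's start was looked up for 7 of the 9 genes, in windows that run from 250 bases before to 50 bases after the start (RefSeq, assembly GRCm38.p6). Csf1r and Csf2rb are named only. Each window was searched on both strands for GATAA, the core recognised by GATA factors, and for GAGGAA, a core recognised by the ETS factor PU.1, encoded by Spi1. The 2 motifs do not overlap in any window shown. GATAA lay in the window of 1 of the 7 genes, Epor, and in 25.4% of all 32851 windows in the table. GAGGAA lay in the windows of 3 of them, Csf3r, Kit and Csf2ra, and in 28.3% of all windows. Flt3, Il3ra and Il7r had neither motif in their windows. A match is a description of the letters and not evidence of binding. The window of Epor, at chr9:21963527-21963826 on the minus strand, is shown because it was the receptor window with a GATA core. Those of Kit, at chr5:75574737-75575036 on the plus strand, and Csf2ra, at chr19:61228369-61228668 on the minus strand, are shown as the counterparts with the PU.1 core. Capitals mark the motifs, and every window reads 5′ to 3′ along the gene's own strand.
Epor promoter: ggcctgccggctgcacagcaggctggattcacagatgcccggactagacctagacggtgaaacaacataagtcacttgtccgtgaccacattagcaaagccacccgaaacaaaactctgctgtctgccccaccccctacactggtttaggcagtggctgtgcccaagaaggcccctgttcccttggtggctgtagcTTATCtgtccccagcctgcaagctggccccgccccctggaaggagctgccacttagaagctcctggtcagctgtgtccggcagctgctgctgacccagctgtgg
Kit promoter: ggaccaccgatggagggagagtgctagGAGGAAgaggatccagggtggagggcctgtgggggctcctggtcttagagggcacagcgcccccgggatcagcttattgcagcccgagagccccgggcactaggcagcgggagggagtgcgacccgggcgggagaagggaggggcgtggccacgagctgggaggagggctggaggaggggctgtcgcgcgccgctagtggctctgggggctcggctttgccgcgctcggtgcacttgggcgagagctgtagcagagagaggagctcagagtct
Csf2ra promoter: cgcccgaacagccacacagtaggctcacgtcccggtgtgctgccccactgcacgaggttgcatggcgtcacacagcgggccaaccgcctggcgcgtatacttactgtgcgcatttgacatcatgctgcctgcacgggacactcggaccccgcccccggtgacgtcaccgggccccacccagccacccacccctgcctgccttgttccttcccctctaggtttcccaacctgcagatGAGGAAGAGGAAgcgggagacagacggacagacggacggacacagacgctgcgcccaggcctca
In Epor the capitals read TTATC, the reverse complement of GATAA, and begin 54 bases before the start. In Kit the motif begins 223 bases before the start of the window's transcript. In Csf2ra it occurs as 2 copies placed directly one after the other, beginning 14 and 8 bases before the start.

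Values are log2 of the processed signal minus the 75th percentile of the array, so 0 is a probe as bright as that percentile and a step of 1 is a doubling. That percentile lay between 2671 and 3825 intensity units, and the share of spots well above background was 61.5% to 67.4% in the arrays labelled knockout against 54.1% to 56.9% in the controls. Levels of different probes cannot be set against each other, because probes differ in how well they bind. The targeted gene went against its label. Gata2, read by 1 probe, was at 2.93, 3.00 and 3.06 on the arrays labelled knockout and at -0.25, 0.24, 0.36 and 0.34 on the controls, a log2 difference of 2.82 (SE 0.18, limma adjusted p = 0.000416). The sources used here do not place that probe inside or outside the deleted part of the gene. It therefore leaves the labels unchecked, and every direction below is that of the arrays as labelled. All arrays lay on 1 slide, with each group in a row of its own, so slide row, Cre and group cannot be told apart. In cultures of mixed cells, fewer cells of a type and less RNA per cell cannot be told apart either. The array labelled knockout replicate 1 stood apart from the other 2 of its group in neutrophil markers, as given beside Csf3r.

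None of the 13 receptor probes, and none of the 9 genes read by their brightest probe, passed the test between the groups (limma, adjusted p under 0.05). Over the whole array 464 of 34130 tested probes passed, which is 1.36% (0.838% higher and 0.522% lower in the arrays labelled knockout). Of 14552 named genes 287 passed, which is 1.97% (1.08% higher and 0.893% lower). At an unadjusted p under 0.05 there was 1 receptor probe of 13, the dimmer Flt3 probe, against 10.6% of all tested probes, and 0 of the 9 receptor genes against 12.2% of named genes. The log2 differences ran from -0.55 for Epor to 0.39 for the dimmer Flt3 probe, 11 being negative and 2 positive, with a median of -0.17 against -0.026 over all tested probes. Their median size without regard to sign was 0.20, against 0.19 over all tested probes. None of the 13 reached a doubling or halving of signal, which 1496 tested probes (4.38%) did. The groups did not overlap for 3 of the 13 probes, against 11.3% of all tested probes. These were the dimmer Flt3 probe, higher in the arrays labelled knockout, and the probes of Csf2ra and the brighter probe of Csf2rb, both lower.

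**Figure D1:**
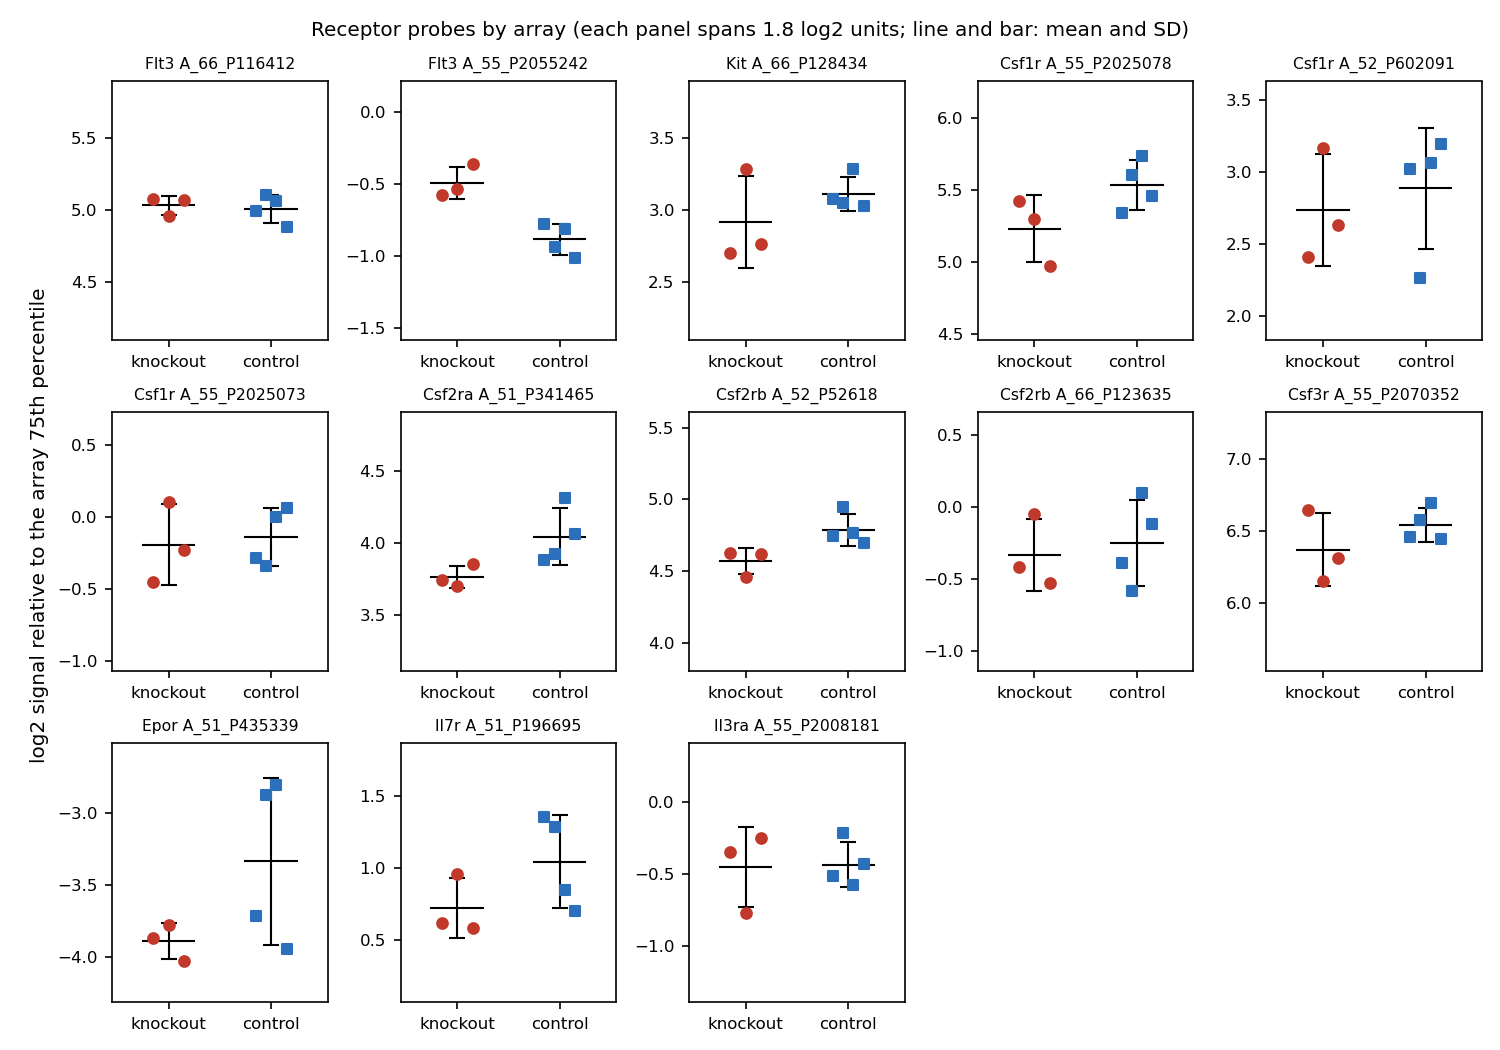
Each panel plots 1 receptor probe, with the log2 signal relative to the array's 75th percentile on the vertical axis and the 3 arrays labelled knockout (red circles) beside the 4 controls (blue squares), and lines and bars giving the mean and SD. Panels have their own level but the same span; the groups separate without overlap for Flt3 A_55_P2055242, Csf2ra and Csf2rb A_52_P52618, and the 4 Epor controls lie apart, 2 of them at -2.87 and -2.81 and 2 at -3.72 and -3.94.

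Flt3, the receptor of the ligand added to the cultures, was read by probes A_66_P116412 and A_55_P2055242. The brighter, A_66_P116412, was at 5.08, 4.96 and 5.07 on the arrays labelled knockout and at 4.99, 5.11, 5.06 and 4.88 on the controls. These 7 values lie within a narrow band and the groups overlap throughout. The group means were 5.04 ± 0.066 (SD, n = 3) and 5.01 ± 0.097 (SD, n = 4), a log2 difference of 0.025 (SE 0.13, limma adjusted p = 0.966). The 95% interval of that difference, -0.27 to 0.32, leaves room for a Flt3 signal up to 1.24-fold higher or 1.20-fold lower in the arrays labelled knockout. It had the smallest residual SD of the 13 probes, 0.086.

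The second Flt3 probe, A_55_P2055242, gave a different picture. It was at -0.58, -0.54 and -0.36 on the arrays labelled knockout and at -0.78, -0.93, -0.81 and -1.01 on the controls, so that every array labelled knockout lay above every control. The difference of 0.39 (SE 0.13, 95% interval 0.083 to 0.70) is 1.31-fold and did not pass after adjustment (limma adjusted p = 0.321). The place in the Flt3 transcript where each probe binds is not known here, and the difference between both probes was not tested. The marker genes of dendritic cells had a median log2 difference of -0.19, with 0 of 14 tested genes higher and 1 lower, Clec10a, a lectin of dendritic cells and macrophages (log2 difference -2.28, limma adjusted p = 0.000538). Xcr1, a defining marker of cross-presenting dendritic cells, was below the filter, and the class II antigen presentation genes H2-Aa and H2-Ab1 differed by 0.0098 and -0.32, neither passing.

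Kit encodes the receptor of stem cell factor, which stem cells, early progenitors and mast cells use. Its single probe, printed on 2 spots that were averaged, was at 2.70, 3.29 and 2.76 on the arrays labelled knockout and at 3.08, 3.05, 3.29 and 3.03 on the controls. Knockout replicates 1 and 3 lay below all 4 controls, and replicate 2 lay within them, just under the highest. The means were 2.92 ± 0.32 (SD, n = 3) and 3.11 ± 0.12 (SD, n = 4), a log2 difference of -0.20 (SE 0.18, 95% interval -0.61 to 0.22, limma adjusted p = 0.739). Without knockout replicate 2 it was -0.38 and without knockout replicate 1 it was -0.088, and neither value passed. The interval allows a Kit signal up to 1.53-fold lower or 1.16-fold higher in the arrays labelled knockout.

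The markers of mast cells and basophils, cells that depend on KIT or derive from progenitors that carry it, are given beside it. Of 11 tested markers 7 were lower and 0 higher, with a median log2 difference of -2.75. Prss34, a basophil protease, was 123-fold lower (log2 difference -6.94, limma adjusted p = 0.000516) and at -6.06 with normexp background correction. Fcer1a, the ligand-binding chain of the IgE receptor, was 33.2-fold lower (log2 difference -5.05, limma adjusted p = 0.0224) and at -3.05 with normexp, and 2 of the 3 arrays labelled knockout measured it above background. The call of Fcer1a was lost without knockout replicate 3 (limma adjusted p = 0.0854) and without each of the control replicates 2, 3 and 4 (limma adjusted p = 0.0614, 0.0562 and 0.0677). The summed signal of the 11 markers, in multiples of the 75th percentile, was 1.00 to 1.19 in the arrays labelled knockout and 10.1 to 22.2 in the controls. Here and below, such a sum is weighted towards the brightest probes of its list, and it sets arrays and not probes against each other. Their part in the Kit values was not tested. Markers of stem and progenitor cells, among which are users of KIT, had a median of -0.064 with 0 of 8 tested genes passing and 2 at an unadjusted p under 0.05.

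Csf1r, the receptor of macrophage colony-stimulating factor and of the cytokine encoded by Il34, and a mark of monocytes and macrophages, was read by 3 probes. The brightest, A_55_P2025078, was at 5.42, 5.30 and 4.97 on the arrays labelled knockout and at 5.34, 5.60, 5.73 and 5.46 on the controls. Replicates 2 and 3 labelled knockout lay below every control and replicate 1 lay above the lowest of them. The means were 5.23 ± 0.23 (SD, n = 3) and 5.53 ± 0.17 (SD, n = 4), a log2 difference of -0.30 (SE 0.17, 95% interval -0.69 to 0.083, limma adjusted p = 0.586), so a signal 1.61-fold lower lies at the edge of the interval.

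The other 2 Csf1r probes were dimmer, and for both the groups overlapped. A_52_P602091 read 2.41, 3.17 and 2.63 against 3.02, 2.27, 3.06 and 3.19, with a difference of -0.15 (SE 0.28, limma adjusted p = 0.886). Control replicate 2 was low on this probe and not on the brightest one. A_55_P2025073 read -0.45, 0.10 and -0.23 against -0.29, -0.34, -0.00011 and 0.061, with a difference of -0.051 (SE 0.18, limma adjusted p = 0.951). All 3 probes were therefore negative and none passed, but both dimmer ones changed sign when some single arrays were left out.

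Beside Csf1r, 7 of 13 tested markers of monocytes and macrophages were lower and 0 higher, with a median of -1.04. C1qc, a chain of the complement component made by macrophages, was 13.2-fold lower (limma adjusted p = 0.0351). It stood well above background on 1 of the 3 arrays labelled knockout and on all 4 controls. Its mean of -7.13 on the arrays labelled knockout is too dim for the fold to be a measured ratio. The call was lost when any single array other than knockout replicate 2 was left out (limma adjusted p = 0.0599 to 0.174). It was also lost with a floor common to all arrays (log2 difference -1.91, limma adjusted p = 0.181). Over the 20 alternatives that tested it, C1qc passed in 12, with limma adjusted p up to 0.193. The 13 markers summed to 57.2 to 64.8 in the arrays labelled knockout and 104.4 to 117.9 in the controls. Set against each control mean, the average of the 13 markers was -1.57, -1.27 and -1.82 on the 3 arrays labelled knockout, and that of the brightest Csf1r probe was -0.11, -0.24 and -0.56. Both were lowest on knockout replicate 3. Their part in the Csf1r values was not tested.

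**Figure D2:**
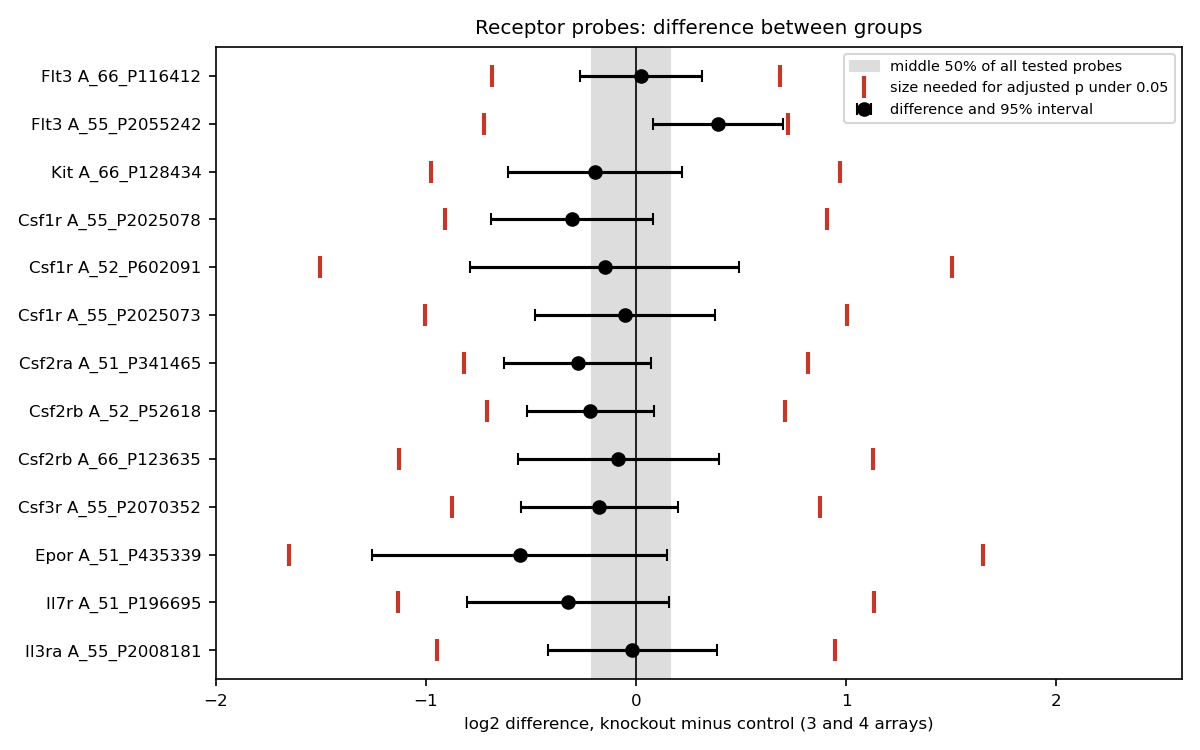
The log2 difference between groups (arrays labelled knockout minus control, 3 and 4 arrays) is plotted for each receptor probe as a point with its 95% interval, the grey band runs from the first to the third quartile of all tested probes, and red ticks mark the size each probe would have needed for an adjusted p under 0.05. All 13 points fall inside their ticks, and the interval that leaves out 0 is that of Flt3 A_55_P2055242 (0.083 to 0.70).

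The receptors of GM-CSF and interleukin 3 pair a chain of their own with a shared one. Csf2ra encodes the GM-CSF binding chain, which pairs with the common beta chain encoded by Csf2rb to form the receptor that myeloid cells use. Its probe was at 3.75, 3.70 and 3.85 on the arrays labelled knockout and at 3.88, 3.92, 4.31 and 4.06 on the controls. The 3 arrays labelled knockout lay below all 4 controls, by a narrow margin from control replicate 1. The means were 3.77 ± 0.077 (SD, n = 3) and 4.04 ± 0.19 (SD, n = 4), a log2 difference of -0.28 (SE 0.15, 95% interval -0.63 to 0.069, limma adjusted p = 0.576).

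Csf2rb, the common beta chain, was read by probe A_52_P52618 at 4.63, 4.46 and 4.62 against 4.75, 4.95, 4.76 and 4.70, again with all arrays labelled knockout below all controls. Its difference was -0.22 (SE 0.13, 95% interval -0.52 to 0.085, limma adjusted p = 0.619), or 1.16-fold. The dimmer probe A_66_P123635 did not separate the groups, at -0.42, -0.046 and -0.53 against -0.39, -0.58, 0.098 and -0.11, and its difference was -0.084 (SE 0.21, limma adjusted p = 0.921). Mice have a second beta chain gene, Csf2rb2, which serves interleukin 3 and is so similar in sequence that probes may read both. It had differences of -0.26 (limma adjusted p = 0.614) on A_51_P146753 and 0.070 (limma adjusted p = 0.957) on A_55_P2034663. Non-overlapping groups below the controls, as seen for Csf2ra and the brighter Csf2rb probe, occurred for 5.98% of all tested probes.

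Il3ra, the interleukin 3 binding chain, which marks plasmacytoid dendritic cells and basophils in human blood, was at -0.35, -0.77 and -0.25 on the arrays labelled knockout. On the controls it was at -0.52, -0.22, -0.58 and -0.43, so the range of the controls lay inside that of the other group except at its upper end. The means were -0.45 ± 0.28 (SD, n = 3) and -0.44 ± 0.16 (SD, n = 4), a log2 difference of -0.018 (SE 0.17, 95% interval -0.42 to 0.39, limma adjusted p = 0.982). Differences of up to 1.34-fold lower or 1.31-fold higher lie within that interval. The sign of so small a value turned under 5 of the 21 alternatives, without any of them passing.

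Csf3r encodes the receptor of G-CSF, the growth factor of neutrophils. It was at 6.64, 6.15 and 6.31 on the arrays labelled knockout and at 6.46, 6.57, 6.70 and 6.44 on the controls. Replicates 2 and 3 labelled knockout lay below all controls, and replicate 1 lay above 3 of the 4. The means were 6.37 ± 0.25 (SD, n = 3) and 6.54 ± 0.12 (SD, n = 4), a log2 difference of -0.17 (SE 0.16, 95% interval -0.55 to 0.20, limma adjusted p = 0.742). Without knockout replicate 1 it was -0.31, without passing.

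The neutrophil markers set the same array apart. On average over the 12 tested markers it lay at -0.26 relative to the control mean, where replicates 2 and 3 lay at -1.94 and -2.09. Csf3r itself, set against its control mean, was at 0.10 on replicate 1 and at -0.39 and -0.23 on replicates 2 and 3. The summed marker signal was 132.9 on replicate 1, 96.1 and 107.4 on replicates 2 and 3, and 148.5 to 170.2 on the controls. Of the 12, 9 were at an unadjusted p under 0.05 and 1 passed, Mmp8, a collagenase of neutrophil granules (log2 difference -0.85, limma adjusted p = 0.0361). None was called higher, and the list's median was -0.91. The Mmp8 call was lost whichever single array was left out, with limma adjusted p from 0.0647 to 0.128. It held in 10 of the 21 alternatives, with limma adjusted p up to 0.230. The part of the markers in the Csf3r values was not tested.

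Epor, the erythropoietin receptor of red cell precursors, was read by 1 probe. It was at -3.87, -3.77 and -4.02 on the arrays labelled knockout. On the controls it was at -3.72, -2.87, -2.81 and -3.94, so that control replicates 2 and 3 were high and replicates 1 and 4 lay at the level of the other group. This was the widest spread of the 13 probes, with a residual SD of 0.46, and the means were -3.89 ± 0.13 (SD, n = 3) and -3.34 ± 0.58 (SD, n = 4). The log2 difference of -0.55 (SE 0.30, 95% interval -1.26 to 0.15, limma adjusted p = 0.581) was the largest among the 9 genes in size and would have needed 3.14-fold to pass. It was -0.38 without control replicate 3 and -0.76 without control replicate 4.

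The 7 tested erythroid markers averaged 0.17 above the control mean over the arrays labelled knockout, and -0.18 and -0.068 on control replicates 2 and 3. None of the 7 passed, 1 was at an unadjusted p under 0.05, their median was 0.11 and their summed signal was 25.7 to 28.0 in the arrays labelled knockout and 23.6 to 28.1 in the controls. Car2, a carbonic anhydrase that is not limited to red cells, had the largest difference, 1.04 (limma adjusted p = 0.091). The defining genes Alas2 and Rhag were below the filter, and the part of these cells in the Epor values was not tested. Of 9 tested markers of megakaryocytes and platelets, another branch of the same progenitors, 2 were lower (Gp1bb and Itgb3), with a median of -0.97 and summed signals of 33.4 to 40.3 against 55.3 to 86.8. Gp1bb lost its call without any one of the arrays labelled knockout or control replicate 4 (limma adjusted p = 0.0524 to 0.0903), and Itgb3 without any single array except control replicate 4 (limma adjusted p = 0.0614 to 0.130). Over all 21 alternatives Gp1bb passed in 16 and Itgb3 in 14, with limma adjusted p up to 0.193 and 0.147.

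Il7r encodes the interleukin 7 receptor chain of lymphoid progenitors and T cells, which also serves TSLP together with Crlf2. It was at 0.62, 0.96 and 0.58 on the arrays labelled knockout and at 1.35, 1.28, 0.85 and 0.70 on the controls. Control replicates 1 and 2 were above every array labelled knockout, and replicates 3 and 4 lay among them. The means were 0.72 ± 0.21 (SD, n = 3) and 1.05 ± 0.32 (SD, n = 4), a log2 difference of -0.32 (SE 0.21, 95% interval -0.81 to 0.16, limma adjusted p = 0.643). A signal up to 1.75-fold lower or 1.12-fold higher lies within the interval.

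T cell markers lay on the other side. Of 7 tested, 2 were higher and 0 lower, namely Lck, the kinase of the T cell receptor (3.07-fold, limma adjusted p = 0.000769), and Trat1, an adaptor of that receptor (5.36-fold, log2 difference 2.42, limma adjusted p = 0.000516, and 1.74 with normexp). Lck passed in 20 of the 21 alternatives, with limma adjusted p up to 0.0585, and Trat1 passed in all 21. The list's median was 0.72, and the 7 markers summed to 7.37 to 8.39 in the arrays labelled knockout and 3.83 to 4.83 in the controls. Cd247, Cd8b1 and Bcl11b were below the filter. Natural killer and innate lymphoid markers, a group that also includes users of interleukin 7, had 3 of 8 tested genes higher (Gzma, Nkg7 and Eomes) and 0 lower. At an unadjusted p under 0.05 were 6 of the 8. With a median of -0.071 the list lay on both sides of 0, so the named genes do not give its direction. The call of Gzma was lost without any one of the arrays labelled knockout (limma adjusted p = 0.0739 to 0.111). B cell markers had 0 of 8 passing, with 1 at an unadjusted p under 0.05, a median of 0.35 and summed signals of 14.8 to 18.7 against 14.8 to 20.8. The part of these cells in the Il7r values was not tested.

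**Figure D3:**
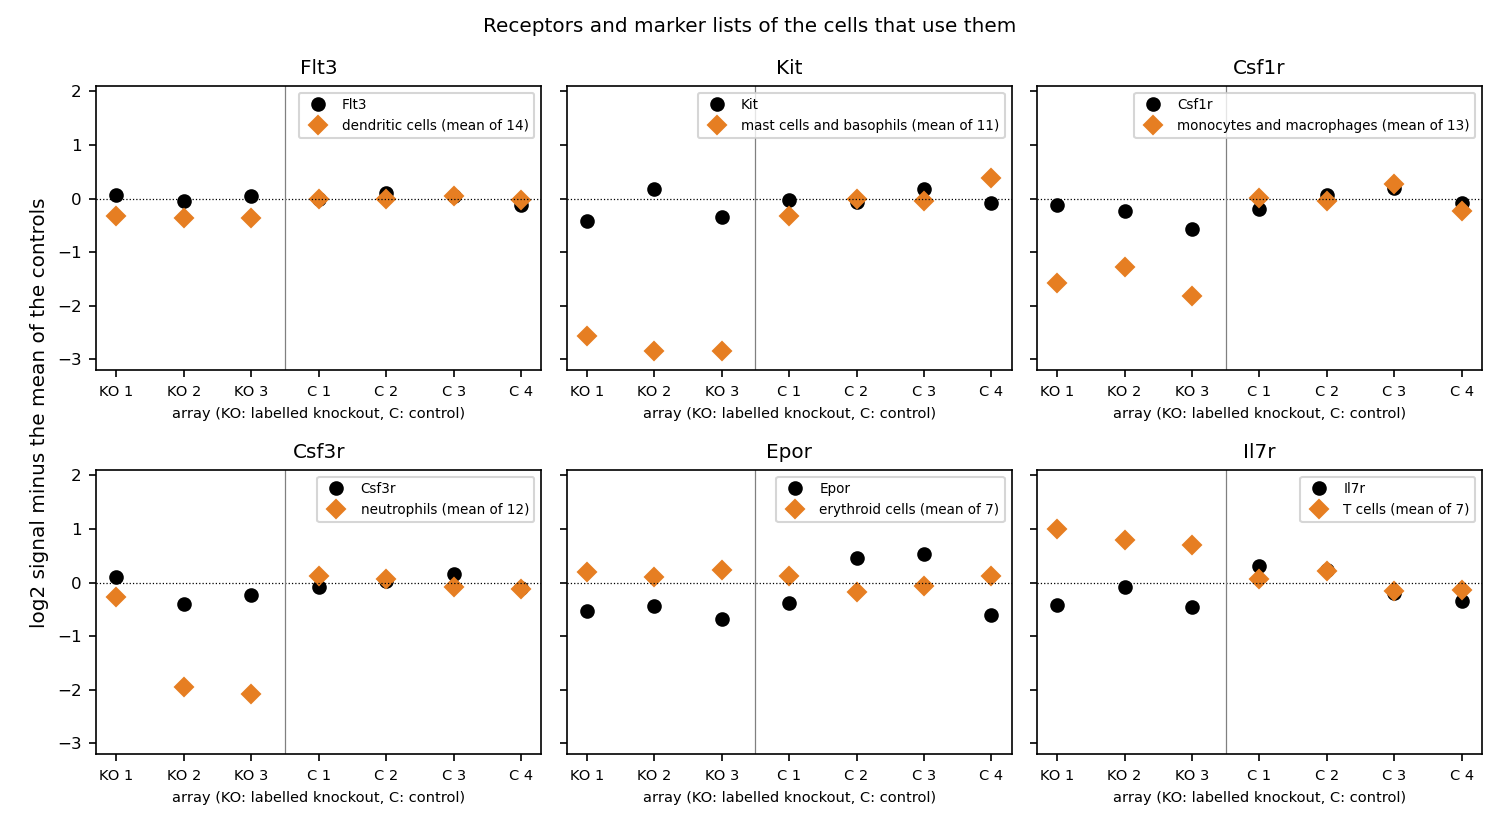
Each panel plots 1 receptor (brightest probe, black circles) and the mean of the tested markers of the cell types set beside it (orange diamonds) on each array, as log2 signal minus the mean of the controls. KO 1 to KO 3 are the arrays labelled knockout and C 1 to C 4 the controls. Mast cell and basophil markers lie at -2.57, -2.84 and -2.84 on the arrays labelled knockout while Kit lies at -0.41, 0.17 and -0.35, and neutrophil markers set knockout replicate 1 (-0.26) apart from the other 2 (-1.94 and -2.09).

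These pairs of receptor and cell type were chosen after values were seen, and they carry no test. Averaged over the arrays, the brightest probes of Kit, Csf1r and Csf3r differed by -0.20, -0.30 and -0.17, and the markers set beside them by -2.75, -1.55 and -1.43. For Flt3 and the dendritic cell markers the values were 0.025 and -0.35, for Epor and the erythroid markers -0.55 and 0.17, and for Il7r and the T cell markers -0.32 and 0.83. Of the remaining marker lists, eosinophils had 3 of 7 tested genes lower (Prg3, Ear1 and Ear2) and a median of -1.55, and stromal and endothelial cells had 0 of 6 passing, 1 at an unadjusted p under 0.05 and a median of -0.019. Eomes and Prg3 were named after their values were seen. At an unadjusted p under 0.05, against 12.2% of named genes, were 3 of 14 tested markers of dendritic cells and 8 of 11 of mast cells and basophils. The same held for 12 of 13 of monocytes and macrophages, 6 of 9 of megakaryocytes and platelets, and 4 of 7 of eosinophils. For T cells the count was 3 of 7, and for natural killer and innate lymphoid cells 6 of 8.

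The spread of the receptor probes within a group is given by their residual SDs. These ran from 0.086 to 0.46 on the log2 scale, with a median of 0.21 against 0.26 over all tested probes. With these spreads a receptor probe would have needed between 1.61-fold, for the brighter Flt3 probe, and 3.14-fold, for Epor, to pass. In the weights that limma gives to arrays over all tested probes, knockout replicate 2 had 0.489 and control replicate 2 had 0.454, the lowest 2 of the 7, and knockout replicate 3 had 3.47, the highest. Knockout replicate 2 was 0.37 above its group for Kit and 0.43 above it for Csf1r A_52_P602091, and 0.31 below it for Il3ra. Control replicate 3 was 0.53 above its group for Epor and 0.34 above it for the dimmer Csf2rb probe.

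**Figure D4:**
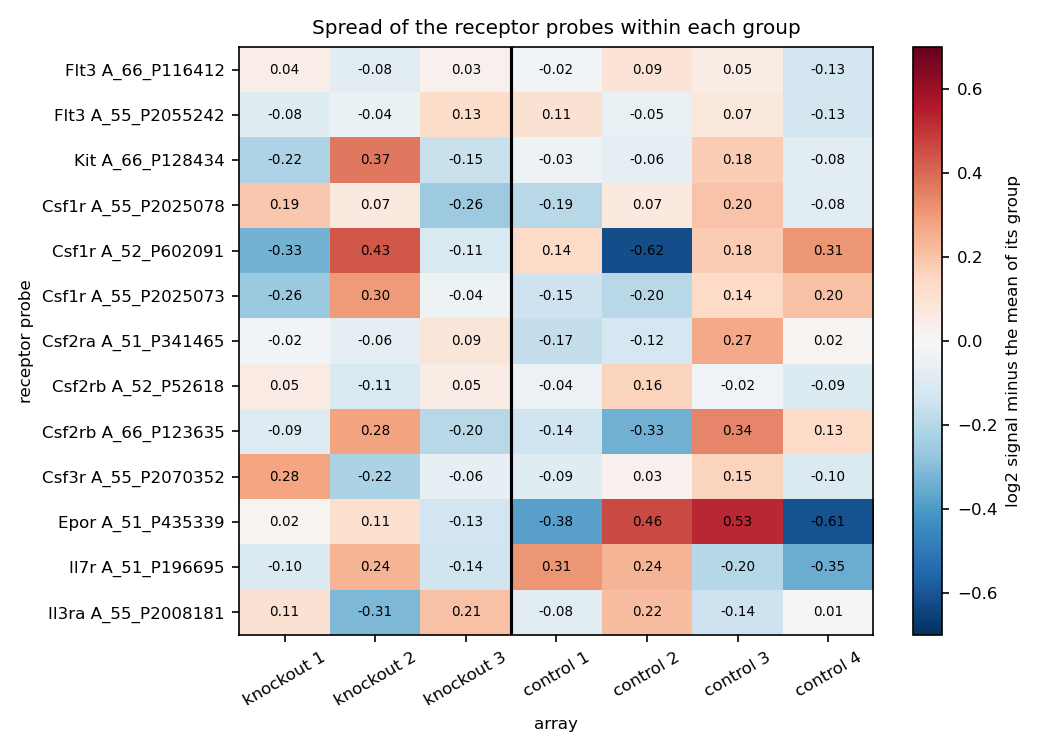
Each cell of the map gives the log2 signal of a receptor probe (rows) on 1 array (columns) minus the mean of that array's own group, red above and blue below. Flt3 A_66_P116412 stays within 0.13 of its group means, while Epor spans from -0.61 to 0.53 among the controls.

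Around the receptors, 7 lists of their ligands, relatives and signalling partners held 133 genes, of which 119 were tested and 14 were below the filter. Of the 119, 2 were higher and 2 lower, which is 3.36% against 1.97% of all named genes. That share counts Gata2, the targeted gene, among those higher. The median log2 difference was -0.041 against -0.045. Among the ligands 6 of 11 were tested. Csf2, Csf3, Epo, Il3 and Il5, the ligands or partners of GM-CSF, G-CSF, erythropoietin, interleukin 3 and interleukin 5 receptors, were below the filter. Flt3l and Kitl, the ligands of FLT3 and KIT, differed by -0.13 (limma adjusted p = 0.844) and -0.10 (limma adjusted p = 0.918), Csf1 and Il34, both ligands of the CSF1 receptor, by -0.42 and 0.033, and Il7 by 0.22, none passing. Those 5 were named for their role and not by the rule for named genes. Tslp, which signals through the chain encoded by Il7r, was lower (4.33-fold, limma adjusted p = 0.0174), and its signal stood well above background in 3 of 4 controls and 1 of 3 of the other arrays. Its call was lost without knockout replicate 1 (limma adjusted p = 0.0692) and with a floor common to all arrays (log2 difference -0.39, limma adjusted p = 0.253).

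Of 26 tested genes for other cytokine receptor chains, 0 passed and 6 were at an unadjusted p under 0.05, and their median was -0.092. The largest differences were those of Il2rb, the beta chain of the interleukin 2 and 15 receptors, at 2.75 (limma adjusted p = 0.065), and Il27ra at 1.07 (limma adjusted p = 0.511). Il2rb passed under 8 of the 21 alternatives, whose limma adjusted p ran from 0.00576 to 0.290. Among 10 tested receptor tyrosine kinases outside the 9 members, 1 passed. Tyro3, a receptor for GAS6 and protein S on phagocytes, was 3.18-fold higher (limma adjusted p = 0.0173), a call lost without knockout replicate 1 or 3 (limma adjusted p = 0.0732 and 0.0979). It passed in 18 of the 21 alternatives, with limma adjusted p up to 0.193. The list's median was 0.00.

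Downstream of the receptors, 0 of 27 kinases, STATs and adaptors passed, 5 were at an unadjusted p under 0.05 and the median was -0.00. Gab1, a docking adaptor, and Jak3, the kinase that works with the common gamma chain, had the largest differences, 0.79 and 0.55 (limma adjusted p = 0.374 for each). Of 18 tested inhibitors of receptor signalling 0 passed, 4 were at an unadjusted p under 0.05, and the median was 0.00. Spred2, an inhibitor of the RAS pathway, was at 1.45 (limma adjusted p = 0.0512) and Dok2, a docking protein that dampens kinase signals, at 0.95 (limma adjusted p = 0.394). Spred2 passed under 9 of the 20 alternatives that tested it, with limma adjusted p from 0.00832 to 0.305. Of the 18 genes that receptor signalling induces 0 passed, 5 were at an unadjusted p under 0.05, and the median was -0.15. The immediate early factors Egr1 and Fos had the largest differences, -1.64 (limma adjusted p = 0.204) and -0.95 (limma adjusted p = 0.2).

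Of 16 tested transcription factors that act on receptor genes, 1 was higher, Gata2 itself, and 1 was lower, with a median of -0.011. Cebpe, a C/EBP factor of late granulocyte maturation, was 8.51-fold lower (log2 difference -3.09, SE 0.31, limma adjusted p = 0.00296). It was at -2.55, -3.78 and -2.96 on the arrays labelled knockout and at 0.10, 0.28, -0.49 and 0.065 on the controls, with no overlap. Its call held in 20 of the 21 alternatives, with adjusted p from 0.000558 to 0.068 (limma). Spi1, which encodes the PU.1 factor of the motif searched in the promoters, differed by -0.028 (limma adjusted p = 0.986), and Gata1, another GATA factor, by -0.86 (limma adjusted p = 0.128). Gata3, also a GATA factor, went the other way, at 1.10 to 3.40 over the 17 alternatives that tested it. It passed in 4 of them, with limma adjusted p from 0.0156 to 0.209, and not in the main fit. Spi1, Gata1 and Gata3 were named for their link to the motifs and not by the rule.

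**Figure D5:**
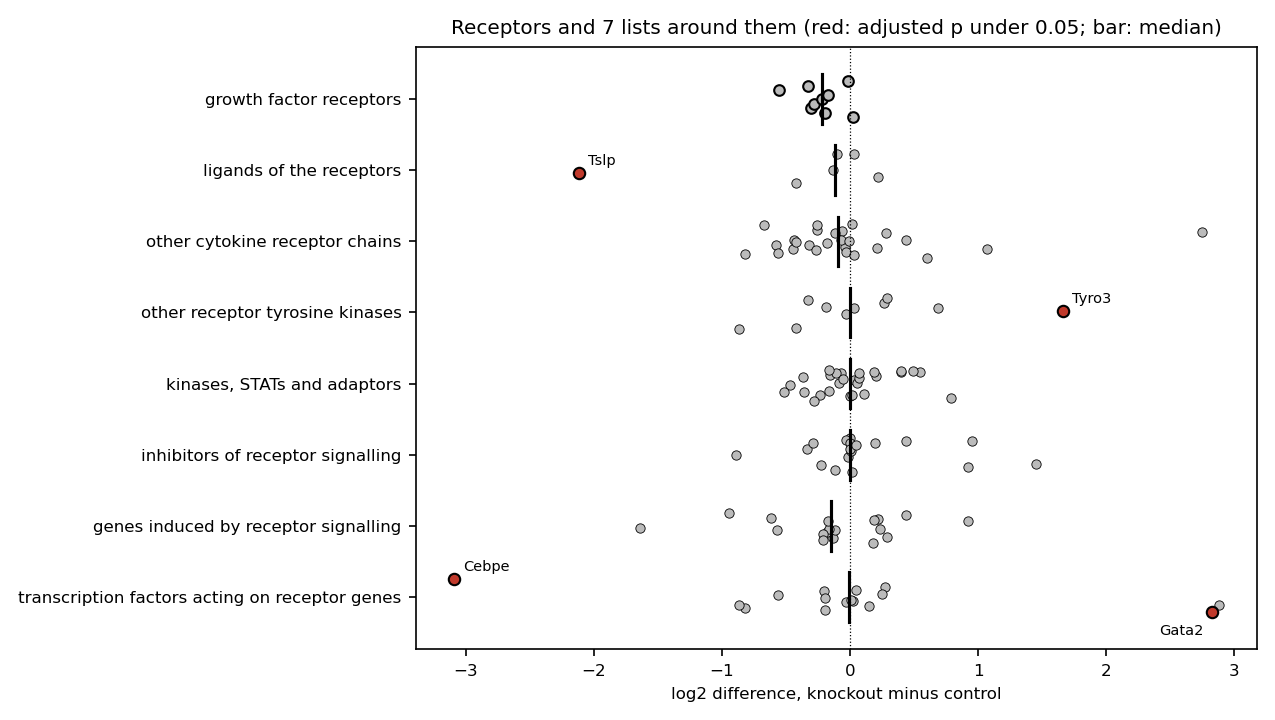
The log2 difference (arrays labelled knockout minus control) of each tested gene is plotted for the 9 receptors in the top row and the 7 lists below, with red points for an adjusted p under 0.05 and bars for each row's median. The receptors lie between -0.55 and 0.025, and the 4 red points are Tslp and Cebpe on the left and Tyro3 and Gata2 on the right.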

How the data were processed

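Amplified RNA carried a Cy3 label, per the labels' protocols. The deposited scanner files hold spot intensity, and per the file headers the images were read with Agilent Feature Extraction 10.7.3.1. The series table is deposited as log2 values that are centred on each probe's median over 7 arrays. The submitters state neither its scale nor its centring or direction, which were found by comparison: array differences matched those of the scanner values with a correlation of 1 and a slope of 1 over 33568 probes. Its column medians were 0 except -0.02 on knockout replicate 3, and it served as an alternative.

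For the main values the processed signal was put on the log2 scale, the 75th percentile of an array's non-control spots was subtracted, spots marked as outliers were dropped and the spots of a probe were averaged. Of 55681 probes, the 34130 that stood well above background in 3 or more of 7 arrays were tested. Names came from RefSeq accessions without version, through a table of assembly GRCm38.p6 that matched 26413 probes (47.4%), and the probe of highest mean stood for a gene. The 2 groups were fitted with limma 3.58.1 (lmFit, eBayes; R 4.3.3), with Benjamini-Hochberg adjustment over all tested probes, a threshold of 0.05 and 5 residual degrees of freedom. The fit was tested on simulated data. The number of arrays limits the precision.

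The receptors, the lists and the alternatives were chosen with earlier results of these data known. The rule names every receptor probe, Gata2, up to 4 genes each way past the threshold in each list (2 in each marker list), or the 2 largest differences where none passed. For receptors past the threshold it also names the genes most like them, and there were none. Normexp was run on median signals, the files used here having no column of means. The fit behind the printed values had no replicate block, which was run as an alternative. Some genes that the rule or the marker lists take are not reported here.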

Additional observations from a re-analysis of the deposited data

How the results depend on the processing

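None of the 13 receptor probes passed under any of the 21 alternatives run, and the lowest adjusted p among their 269 values was 0.079 (limma). Of 13 probes 7 kept their sign throughout. With other scaling the sign turned for Csf3r (0.053 with quantile normalization), Il3ra (0.029 with the percentile over probes well above background on all arrays, 0.051 with median centring, 0.17 with array weights) and Csf1r A_55_P2025073 (0.018 with median centring). With the replicate block it turned for that Csf1r probe (0.017) and Flt3 A_66_P116412 (-0.018). Control replicate 4 has no partner of its number, so the block fit takes nothing from it for the group difference. The receptor differences are then those found without control replicate 4, with a median of -0.21 in both settings. Leaving out 1 array at a time turned the sign of 5 probes, whose values then ran from -0.12 to 0.14 for Il3ra, -0.20 to 0.080 for Csf1r A_55_P2025073, -0.37 to 0.014 for Csf1r A_52_P602091, -0.018 to 0.063 for Flt3 A_66_P116412 and -0.23 to 0.031 for Csf2rb A_66_P123635. The cause was not tested. Over all probes, 286 were higher and 178 lower, and with the replicate block 81 and 71. The block fit also has fewer residual degrees of freedom, and the part of pairing in its counts was not tested. No pairing of the replicate numbers is stated, and deviations of same-numbered arrays correlated at -0.062, -0.084 and -0.023 across probes. The calls lost with the block included those of Fcer1a and Cebpe (limma adjusted p = 0.148 and 0.068). Ear2 passed in 20 of the 21 alternatives, with limma adjusted p up to 0.0728. Ear1 passed in 18 of the 20 that tested it, with limma adjusted p up to 0.212. The lower count was 300 with normexp and 398 with each array's own floor. Array weights gave 757 and 558, no filter 847 and 9267, and leaving out 1 array 84 to 248 and 95 to 162. The dimmest probe well above background lay at -6.91 to -6.21 on the arrays labelled knockout and at -5.59 to -5.32 on the controls. Lower calls of probes as dim as that are therefore no measure of less RNA, and the part of this offset in the lower counts was not tested. In the 7 lists the higher count was 6 without the filter, 4 with the own floor, 4 with trend and robust variance, 7 with weights, 6 with 1 probe per gene and 1 with the block. The lower count was 1 with the filter of all 7 arrays, 1 with the common floor, 6 with weights and 0 with the block, and leaving out 1 array gave 1 to 3 and 1 to 2. Without the filter the median of all probes lay 0.11 lower, at -0.14, and in no other setting did it move by more than 0.07. The Epor probe had the least precision.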
